A study of Mus musculus with 4 samples.

Results

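The genes described here are the mouse counterparts of 8 human Parkinson disease genes, Lrrk2, Park7, Pink1, Vps35, Gak, Atp13a2, Fbxo7 and Gch1. They were taken by symbol from a list that was chosen with earlier results of these data known. All 8 were found among the 56832 genes listed for each library. RNA was sequenced from 4 libraries of cultured microglia of C57BL/6 mice labelled female. These were the endogenous microglia of primary glial cultures, which had been trypsinised, stained and sorted. The labels number the replicates 1 to 4 without saying that the cultures or mice were different ones, so errors and p-values describe the variation among these 4 libraries and may be technical. No other group of the series was analysed here, so levels were compared between genes and between libraries, not between conditions.

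Parkinson disease destroys dopamine neurons of the midbrain, but many of its genes act in organelles that every cell has. PINK1 is a kinase that marks damaged mitochondria for removal, LRRK2 is a kinase that phosphorylates Rab GTPases on vesicles and lysosomes, and VPS35 is the core of retromer, the coat that returns cargo from endosomes. ATP13A2 exports polyamines from lysosomes, GAK strips clathrin from vesicles, PARK7 (DJ-1) protects against oxidants, FBXO7 is the substrate adaptor of a ubiquitin ligase, and GCH1 makes the cofactor that tyrosine hydroxylase needs for dopamine synthesis. From general knowledge of the brain, Gch1 (a gene of dopamine and other monoamine neurons) and Pink1 were classed as the 2 neuron-type members. The other 6 were classed as broad. Earlier results of these data were known by then, and the classes were set beside the levels measured in microglia.

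The libraries held 23212183 to 28469813 gene counts, and 11704 genes, 20.6% of those listed, were detected, meaning at least 1 CPM (counts after scaling every library to the same total) in every library. The 8 microglia markers all reached that level, with a median of 1846 TPM ± 63.4 (SD, n = 4, as for every mean ± SD that follows). TPM are counts per length of merged exons, scaled to a common total, and serve to compare different genes. Lists of markers of other cells had lower medians, though single genes reached high levels. Of the 12 neuron markers 3 were detected, Map2 (2.53 TPM ± 0.387), Stmn2 (1.51 ± 0.644) and Eno2 (1.28 ± 0.216), Snap25 and Slc17a6 were at 0 in every library, and the list summed to 16.4 to 20.6 CPM with a median of 0.0722 TPM ± 0.0242. Of the 12 astrocyte markers 11 were detected, with a median of 13.3 TPM ± 2.97, Clu at 210 ± 44.9 and Gfap at 50.3 ± 14.2, and they summed to 316, 495, 533 and 433 CPM in replicates 1 to 4. Of 8 oligodendrocyte lineage markers 4 were detected, with a median of 2.16 TPM ± 0.480, Cnp at 99.3 ± 3.08 and Mbp at 43.9 ± 2.11, and a sum of 223 to 239 CPM. All 6 mural and fibroblast markers were detected, with a median of 2.45 TPM ± 0.466, Acta2 at 84.5 ± 21.2, and a sum of 75.3 to 107 CPM. The lowest microglia marker, Sall1, was at 9.26 ± 0.662. Immediate-early genes summed to 2235, 1328, 1615 and 1310 CPM in replicates 1 to 4. The label gives female mice and Xist was at 300.2 CPM ± 42.9. However, 4 Y-linked genes were also at 9.48 to 41.5 CPM over the 4 libraries, which female cells alone would not give.

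The members spanned a wide range in microglia and fell into a high set of 5 and a lower set of 3. Pink1, Atp13a2, Gak, Park7 and Vps35 were between 69.6 and 241 TPM on average, above the upper quartile of detected genes (55.5 TPM), while Fbxo7, Gch1 and Lrrk2 were between 2.57 and 17.2 TPM, below the median of detected genes (21.4 TPM). By definition 25.0% of detected genes reach that quartile and 50.0% the median. The neuron-type classing did not match the levels. On this TPM scale Pink1 was the highest of all 8 and Gch1 the second lowest, and the lowest was Lrrk2, one of the 6 broad members.

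Pink1 was at 232, 248, 249 and 236 TPM in replicates 1 to 4, above 94.6% of detected genes. These values were nearly level, and on this scale the lowest Pink1 library exceeded the highest library of every other member. Park7 was above Pink1 with longest-transcript lengths. On CPM, without gene length, Atp13a2 (312) and Gak (282) were above Pink1 (190). Atp13a2, the lysosomal polyamine exporter, was at 172, 189, 169 and 174 TPM, above 92.4% of detected genes. Gak, the kinase that recruits HSC70 to clathrin-coated vesicles, was at 147, 151, 154 and 144 TPM. Park7, the redox-sensitive protein DJ-1, was at 129.6, 136, 128 and 121 TPM. The Atp13a2, Gak and Park7 libraries did not overlap, though their gaps were small beside the doubt over transcript length. Vps35 was at 76.9, 65.5, 63.4 and 72.7 TPM, higher in replicates 1 and 4 than in replicates 2 and 3.

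Fbxo7, an F-box protein that also binds the proteasome regulator PI31, was at 16.6, 16.7, 17.3 and 18.2 TPM, just under the median, with 44.2% of detected genes below it. Gch1, the entry enzyme of tetrahydrobiopterin (BH4) synthesis, was at 7.78, 7.84, 8.45 and 7.81 TPM. Lrrk2 was at 2.77, 2.49, 2.21 and 2.83 TPM, above only 9.61% of detected genes, and rested on 257, 204, 180 and 283 counts. Replicate 3 was lowest and replicate 4 highest, but all libraries were above the detection limit. No library of Fbxo7, Gch1 or Lrrk2 overlapped one of the high set.

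**Figure D1:**
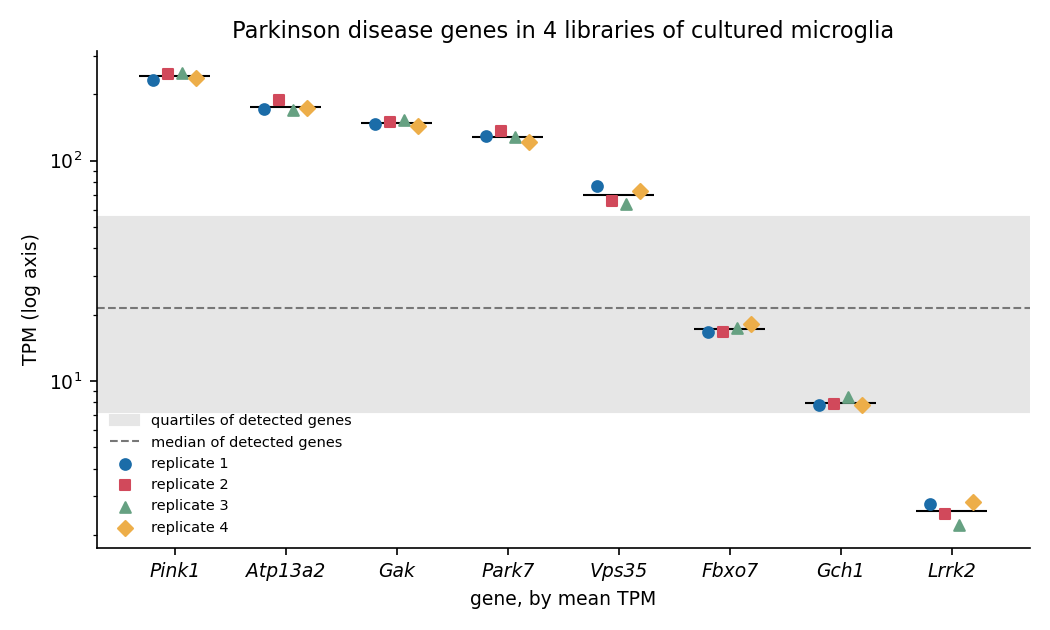
TPM (log axis) of the 8 Parkinson disease genes in each of the 4 microglia libraries. Points are libraries, black bars their means, the dashed line the median (21.4 TPM) and the grey band the quartiles (7.25 to 55.5 TPM) of detected genes; 5 genes lie above the band, Fbxo7 and Gch1 inside it and Lrrk2 below it.

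Neighbours in the order of level were compared library by library. The order came from the mean TPM of these same 4 libraries, so the direction of each pair was set by the values compared. Each of the 7 neighbouring pairs kept its order in every library, but the exact two-sided sign-flip permutation test cannot go below 0.125 with 4 libraries, and each pair had p = 0.125 (0.125 also after Benjamini-Hochberg adjustment over the 7 pairs). The steps at the top were small. Pink1 stood above Atp13a2 by 0.46 ± 0.0728 on the log2 TPM scale, Atp13a2 above Gak by 0.24 ± 0.0810, and Gak above Park7 by 0.21 ± 0.0562. These steps depend on the length assigned to each gene. Park7 has 2479 bases of merged exons but a longest transcript of 937 bases in GENCODE M21, and with longest-transcript lengths its level was 258 TPM ± 12.5, the highest of the 8, and the difference of Gak over Park7 turned to -0.67. The steps lower down were larger, 0.89 ± 0.169 for Park7 over Vps35, 2.01 ± 0.142 for Vps35 over Fbxo7, 1.11 ± 0.0790 for Fbxo7 over Gch1 and 1.64 ± 0.214 for Gch1 over Lrrk2, and all of these kept their sign with either length. Fbxo7, Gch1 and Lrrk2 were sixth, seventh and eighth on both TPM scales and on CPM.

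Set against each other, the 6 broad members had a higher median than the 2 neuron-type members by a log2(TPM + 1) difference of 1.04 ± 0.103, the same way in all 4 libraries, and no test was made because the genes were chosen. This value hides a split class. The neuron-type members themselves differed by a log2 TPM of 4.92 ± 0.0436, a 30.3-fold higher level of Pink1 than of Gch1, and the broad members ranged over 6.10 ± 0.173, a 68.7-fold higher level of Atp13a2 than of Lrrk2. Averaging the members of each class instead gave a difference of 0.10.

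The upstream sequences of Pink1 and Gch1 are shown because these neuron-type members stood so far apart. RefSeq windows (GRCm38.p6, another build than that of the counts) were at hand for 7 of the 8 genes, without Vps35. Each sequence below is the 250 bases before the annotated start, 5′ to 3′, and capitals mark matches on either strand to the TATA box (TATAAA), the CCAAT box (CCAAT), the GC box (GGGCGG), the E-box (CACGTG) or the CRE core (TGACG). The Pink1 window is chr4:138326297-138326546 and the Gch1 window chr14:47189414-47189663, both on the minus strand.
Pink1: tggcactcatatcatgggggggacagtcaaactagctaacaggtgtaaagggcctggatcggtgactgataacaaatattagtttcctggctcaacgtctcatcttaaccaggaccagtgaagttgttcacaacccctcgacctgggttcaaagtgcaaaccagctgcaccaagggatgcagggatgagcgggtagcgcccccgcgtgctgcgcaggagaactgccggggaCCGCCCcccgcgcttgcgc
Gch1: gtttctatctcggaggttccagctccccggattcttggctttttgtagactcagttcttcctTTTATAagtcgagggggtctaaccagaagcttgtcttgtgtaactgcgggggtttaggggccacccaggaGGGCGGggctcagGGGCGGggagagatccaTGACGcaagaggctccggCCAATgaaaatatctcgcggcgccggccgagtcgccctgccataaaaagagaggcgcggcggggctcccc
The Pink1 window held 1 match, to GGGCGG, which occurs in 32.7% of the 32841 windows of all genes. The Gch1 window held 2 matches to GGGCGG and 1 each to TATAAA (12.4% of all windows), CCAAT (33.9%) and TGACG (17.8%), with no overlap among them. CACGTG, in 6.02% of all windows, was in neither. The GC content was 57.2% for Pink1 and 59.2% for Gch1, both above the median of all windows (52.4%). A match describes letters only and does not show binding or a cause of the levels.

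Genes that work with each member were read next. For Lrrk2 the related kinase gene Lrrk1 stood far higher. Lrrk2 was at 2.57 TPM ± 0.283, against 42.2 TPM ± 1.41 for Lrrk1, a difference of -3.60 ± 0.149 on the log2(TPM + 1) scale, in the same direction in 4 of 4 libraries and -3.58 with longest-transcript lengths. Most genes listed with the kinase were detected, though not all of them encode its substrates. Of 15 genes for the paralogue, Rab substrates and partners, 14 were detected and 12 were at or above the median of detected genes, with a list median of 55.3 TPM ± 0.886. Rab10 (191 TPM ± 10.7), Rab8b (174 ± 13.8) and Rab35 (168 ± 3.07) were highest, and Rab43 was at 11.2 ± 1.24. Rab29, a Rab that recruits LRRK2 to membranes, was at 54.5 ± 4.30, and Ppm1h, the phosphatase that reverses Rab phosphorylation, at 55.6 ± 0.676. Rab32 was at 158 ± 8.63, whereas its close relative Rab38 was at 0 throughout, so up to 0.129 CPM could have gone unseen in a library. Rab29, Ppm1h and Rab32 were named after their values were seen.

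For Vps35 the partners of the retromer trimer were at levels of the same order. Vps35 was at 69.6 TPM ± 6.27, the cargo-side subunits Vps26a and Vps26b at 123 ± 11.6 and 58.1 ± 2.17, and Vps29 at 42.7 ± 3.88. Vps35 was below Vps26a by a log2(TPM + 1) difference of -0.81 ± 0.102 with merged exons, but by only -0.06 ± 0.102 with longest transcripts, so that order is not settled. Vps35l, which takes the place of VPS35 in the related retriever complex, was at 28.8 ± 0.148, with Vps35 above it by a log2(TPM + 1) difference of 1.24 ± 0.121 with merged exons and 0.57 with longest transcripts. All 19 genes of the retromer, sorting nexin and WASH list were detected and 17 were at or above the median, led by the sorting nexins Snx3 (404 ± 11.7), Snx5 (358 ± 24.6) and Snx2 (252 ± 23.9). The lowest were Washc3 (12.5 ± 1.48) and the retromer cargo receptor Igf2r (9.83 ± 1.33). Vps26a, Vps26b and Vps29 were chosen after their values were seen.

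For Pink1 all 22 genes of mitochondrial import and mitophagy were detected, 20 of them at or above the median, and the median gene of the list was at 58.3 TPM ± 0.327. Ubiquitin Ubb (1167 ± 60.7), the autophagy receptor Sqstm1 (726 ± 58.8) and the import receptor subunit Tomm22 (160 ± 11.5) were highest. The mitofusin Mfn1 (18.2 ± 0.486) and the mitophagy receptor Optn (12.7 ± 0.791) were lowest. Of the whole list, Ubb and Sqstm1 were above Pink1 on the TPM scale and the rest below it.

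For Gak, 16 of 19 genes of the clathrin coat and its adaptors were detected and 15 were at or above the median, the list's own median being 74.9 TPM ± 2.40. Hspa8, the chaperone HSC70 that GAK recruits, was the highest at 1178 TPM ± 38.3, followed by the light and heavy chains Clta (869 ± 15.3) and Cltc (516 ± 40.6). The neuronal counterpart of Gak was near the counting limit. Dnajc6, which encodes auxilin, had 9, 0, 0 and 7 counts in replicates 1 to 4, beside 7427, 6729, 6803 and 7824 counts of Gak. Sh3gl2, an endophilin gene of nerve terminals, had 0, 0, 0 and 3 counts. Synj1, a phosphatase of clathrin uncoating that is itself linked to parkinsonism, was at 55.1 TPM ± 2.94, so not every gene of this step best known from neurons was low.

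For Atp13a2 the related P5-type ATPases fell into a detected pair and a pair near the counting limit. Atp13a2 was at 176 TPM ± 8.86, against 92.2 ± 8.80 for Atp13a1, which acts in the endoplasmic reticulum, and 51.2 ± 6.43 for Atp13a3, and it was above each in 4 of 4 libraries, by 0.93 ± 0.166 and 1.77 ± 0.196 on the log2(TPM + 1) scale. Atp13a4 had 0, 5, 2 and 6 counts and Atp13a5 had 0, 0, 0 and 5. Of the 13 genes listed for P5-type ATPases and polyamine metabolism 11 were detected and 10 were at or above the median, and the list's own median was 51.1 TPM ± 1.62. The polyamine genes were led by Oaz1 (539 ± 29.1), which restrains polyamine synthesis, Sat1 (416 ± 28.5), which acetylates polyamines for export or breakdown, and Smox (118 ± 9.82), a spermine oxidase.

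For Gch1, 7 of the 15 genes listed for BH4 synthesis, recycling and use were detected and 3 were at or above the median, the list's own median being 2.14 TPM ± 1.14. Gch1 was at 7.97 TPM ± 0.320, the feedback regulator Gchfr at 8.43 ± 1.47, and the next enzymes Pts and Spr at 13.3 ± 2.09 and 53.2 ± 6.96. Qdpr, which recycles the cofactor, was at 139 ± 4.59 and Pcbd2, a dehydratase of the same cycle, at 74.7 ± 15.9, whereas the related dehydratase gene Pcbd1 had 11, 21, 12 and 7 counts and was not detected. Gch1 and Gchfr were not ordered by these data. Each was higher in 2 of 4 libraries, Gchfr rested on 34 to 43 counts, and longest-transcript lengths put Gch1 above Gchfr by a log2(TPM + 1) difference of 0.68. Of the hydroxylases that use BH4, Th, Tph1 and Tph2 had 0 counts in every library, and so had Nos2, the inducible nitric oxide synthase. Nos1 had 12, 0, 0 and 4 counts and Nos3 had 9, 1, 4 and 5, whereas Agmo, an ether-lipid enzyme that also uses BH4, was at 4.52 ± 0.516. Pts, Gchfr, Pcbd1, Tph1, Tph2, Nos1, Nos3 and Agmo were named after their values were seen.

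**Figure D2:**
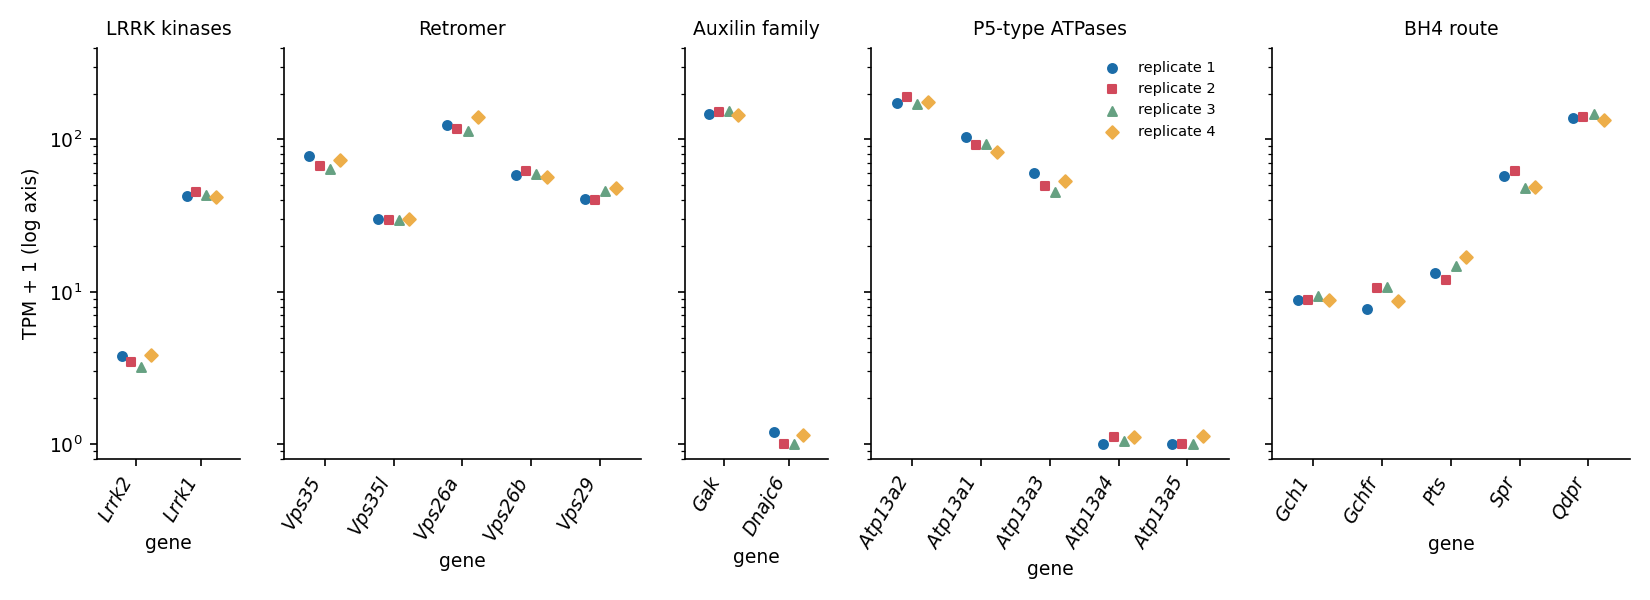
TPM + 1 (log axis) of Lrrk2, Vps35, Gak, Atp13a2 and Gch1, each leftmost in its panel, beside paralogues or partners in the 4 microglia libraries. Lrrk2 lies below Lrrk1 in every library, Gak and Atp13a2 lie far above Dnajc6, Atp13a4 and Atp13a5, and Gch1 lies at the level of Gchfr and below Qdpr.

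For Fbxo7, Psmf1, which encodes its partner PI31, was at 18.8 TPM ± 1.06, close to Fbxo7 itself at 17.2 ± 0.746. All 9 listed genes of the ligase core and the partner cyclins were detected, and 7 of the 8 with a matched length were at or above the median. Ccnd1, a cyclin of the cell cycle entry step, was highest at 653 ± 51.2, and the ligase scaffold Cul1 was at 82.5 ± 8.11. Skp1, the adaptor that binds the F-box, had no matched length and was at 99.9 CPM on average (named after its values were seen). For Park7, 14 of 15 oxidant defence genes were detected and 13 were at or above the median, led by Prdx1 (910 ± 48.7), Hmox1 (545 ± 31.5) and Txn1 (246 ± 14.8). Nqo1, a target of the NRF2 pathway, was lowest at 2.64 ± 1.30.

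The contrast between neuronal and broad genes was clearer outside the 8. The lists were picked as neuronal or broad with earlier results of these data known, so this contrast is a description only. Of 13 further Parkinson-linked genes of broad expression all were detected, but only 9 were at or above the median of detected genes. Their own median was 53.4 TPM ± 2.82 beside 99.2 ± 3.51 for the 8 members, and Scarb2, a lysosomal membrane protein, was highest at 379 ± 3.82. Of 9 further genes best known from neurons 2 were detected, Synj1 and the ubiquitin hydrolase Uchl1 (22.5 ± 7.18), and the list median was 0.169 ± 0.108. Of 11 dopamine neuron markers 0 were detected and 9 had 0 counts in every library, among them Ddc, Pitx3 and the dopamine transporter gene Slc6a3 (Ddc and Pitx3 were chosen after their values were seen). The vesicle transporter Slc18a2 was at 0.858 ± 0.317. Th, Slc6a3 and Slc18a2 stood both among these markers and among the 9 genes best known from neurons, so the lists are not independent. Pink1 had 4581 to 5342 counts per library, beside 257 to 351 counts for Map2, 41 to 93 for Stmn2, 36 to 52 for Eno2 and 0 for Snap25 and Slc17a6, and the part of neuronal RNA in the Pink1 level was not tested. The astrocyte markers moved between libraries and were lowest in replicate 1, where Pink1 was also lowest, at 183 CPM against 188 to 196 CPM (TMM-scaled) elsewhere, and their part in the Pink1 level was not tested. In sorted cells in bulk, fewer cells of a type and less RNA per cell cannot be told apart.

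**Figure D3:**
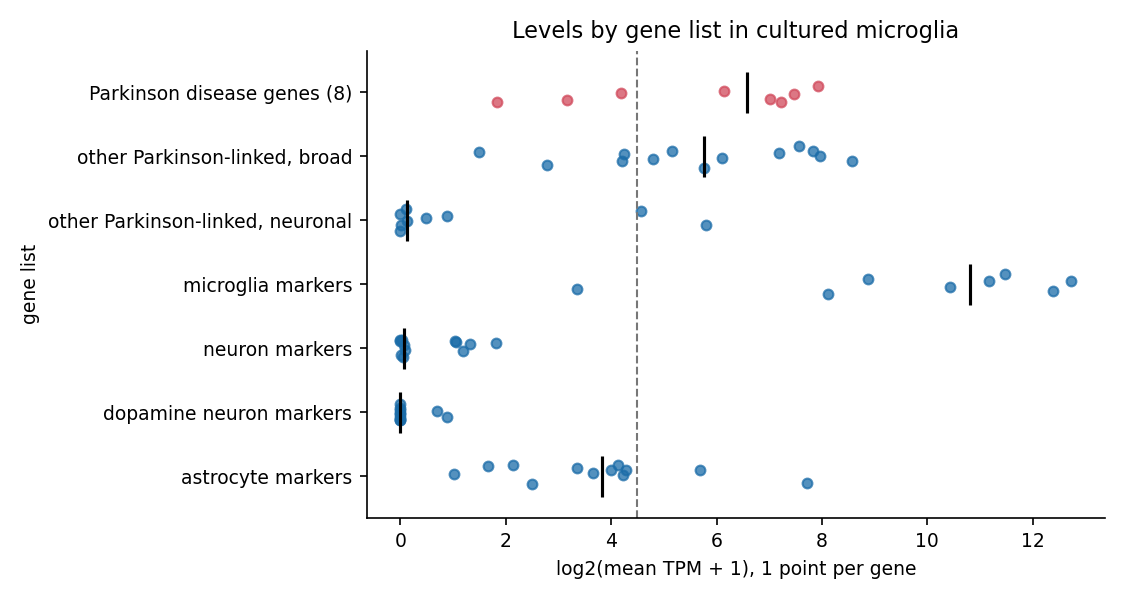
Mean level of each gene on the log2(TPM + 1) scale by list, 1 point per gene, with list medians as black bars and the median of detected genes as a dashed line. The 8 Parkinson disease genes reach from Lrrk2 (2.57 TPM) to Pink1 (241 TPM), while most neuron and dopamine neuron markers lie at or near 0.

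The last comparison was between replicate libraries. Spread beyond that of genes of like abundance was tested in edgeR across 12879 genes, on TMM-scaled counts. Of the 8 members 0 passed (edgeR deviance test, Benjamini-Hochberg adjusted p = 0.9999 for each), against 143 genes or 1.11% of all tested. At an unadjusted p under 0.05 the numbers were 0 of 8 and 875 genes or 6.79%, and DESeq2 marked 0 members as dispersion outliers. A p that misses the threshold does not show that the libraries were alike.

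Within these limits the measured spread differed between members, though none passed the test above. Gak was at 279, 287, 289 and 275 CPM, an SD of 0.0343 on the log2 scale, smaller than in all but 4.42% of tested genes. Pink1 and Gch1 had SDs of 0.0464 and 0.0466, beside a median of 0.130 over tested genes of all abundances. The coefficient of variation of Gch1, 3.28%, was below the 5.17% that counting alone gives, so its small SD does not show steadiness. For Gak and Pink1 it was 2.37% and 3.20%, where counting alone gives 1.18% and 1.44%. Vps35 was at 202, 173, 165 and 192 CPM, with an SD of 0.135 and the lowest p of the 8 (edgeR deviance test, unadjusted p = 0.13, adjusted p = 0.9999). Lrrk2 was at 9.65, 8.71, 7.64 and 9.94 CPM, with the largest SD, 0.171, a coefficient of variation of 11.6% where counting alone gives 6.58%. Vps35 and Lrrk2 were both higher in replicates 1 and 4 than in replicates 2 and 3, but neither passed. The microglia marker P2ry12 was likewise higher in replicates 1 and 4, at 239, 185, 161 and 249 CPM, and did pass (edgeR deviance test, adjusted p = 0.0010), the only one of the 8 microglia markers to do so. The microglia markers summed to 17213, 16255, 16613 and 16964 CPM and the astrocyte markers, as given above, were lower in replicates 1 and 4. Replicates 1 and 4 also held more gene counts (27012285 and 28469813) than replicates 2 and 3 (23436924 and 23212183). The part of cell types or depth in the Vps35 and Lrrk2 values was not tested. Atp13a2 was at 305, 336, 296 and 311 CPM, Park7 at 94.8, 100.04, 92.5 and 89.1 CPM, and both were highest in replicate 2. Fbxo7 was at 30.3 to 33.5 CPM and highest in replicate 4.

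Among the partner genes, Washc4 passed the test. Washc4, a subunit of the WASH complex that acts with retromer, was at 102, 79.0, 63.0 and 88.5 CPM (edgeR adjusted p = 0.021). It was highest in replicate 1 and lowest in replicate 3, as Vps35 was. In the lists of immediate-early genes and astrocyte markers 11 of 15 and 3 of 11 tested genes passed, so the libraries did differ in other genes. The summed level of the 8 members was 1102, 1145, 1107 and 1112 CPM in replicates 1 to 4. The pattern of Lrrk2 over the 4 libraries was matched most closely by Hccs, Ythdc1 and Foxp1, with root mean square differences of 0.00529, 0.00906 and 0.0102 on the log2 CPM scale, but 180 tested genes lay within 0.05, so with 4 libraries the likeness is a description only.

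**Figure D4:**
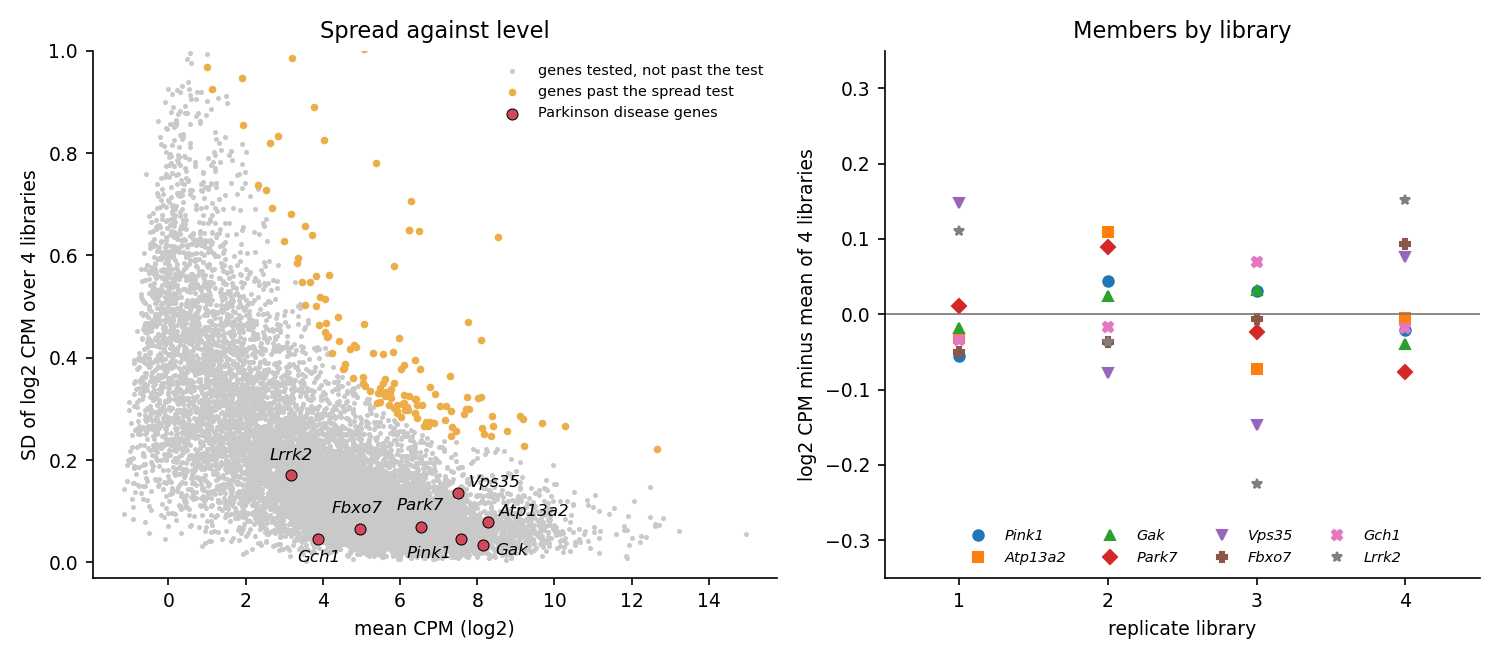
Left, SD of log2 CPM over the 4 libraries against mean CPM on a log2 scale for all tested genes, with 20 genes above an SD of 1 off the plot, genes past the spread test in orange and the 8 Parkinson disease genes in red. Right, log2 CPM of each of the 8 minus its mean, by replicate; all 8 lie among the genes that did not pass, and Lrrk2 and Vps35 depart most from 0.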

How the data were processed

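For each library the authors deposited raw counts by gene symbol. HTSeq 0.11.2, STAR 2.7.10a and SAMtools 1.16.1 and the build mm39 (GRCm39) are named per the submitters' processing notes. Strand setting, overlap mode and annotation release were not given in the sources used here, and antisense or overlapping genes may share reads; in GENCODE M21 other genes overlap 0 to 6.70% of the members' exon bases. The 5 summary lines (11.8% ± 0.159 of reads, SD, n = 4) were left out. Depth was 27012285, 23436924, 23212183 and 28469813 counts in replicates 1 to 4; 0 counts allow 3, which is 0.105 to 0.129 CPM (counting error only).

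TPM were computed here from the counts and merged exon lengths in GENCODE M21 (GRCm38, lengths only), which covered 98.8% of the counts and all 8 members. Spread between libraries was tested in edgeR 4.0.16 (R 4.3.3) with 1 mean per gene, TMM, filterByExpr and trended dispersion, comparing the deviance with a chi-square distribution of 3 degrees of freedom, with Benjamini-Hochberg adjustment over all genes and a threshold of 0.05. On simulated data with 12879 genes, 92.4% of genes changed 4-fold in 1 library and 13.4% of those changed 1.5-fold were recovered. A quasi-likelihood test needs groups to compare, and there was 1 group.

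The members, lists and tests were chosen with earlier results of these data known. Genes named are the 8 members, 7 paralogues, the 3 highest and 2 lowest of each list, list genes past the spread test and the 3 genes most like the member of largest SD; others are said to be chosen after their values were seen. A few genes named by it are not reported here but were counted in their lists and in the calls over all genes. Alternatives were DESeq2 1.42.0, other scalings, filters, dispersions, gene lengths and pseudocounts, and leaving out each replicate.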

Additional observations from a re-analysis of the deposited data

Results flagged for a closer look

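Of 113 genes screened, 6 had 1 library far from the other 3, by a rule that chance alone meets in about 1 of 20 genes; the gap to the nearest library is given as a share of the whole range. Gch1 was the only member among them, with replicate 3 at 15.4 CPM and the other libraries at 14.3 to 14.5 CPM (gap 0.840), a small difference that did not pass the spread test. Replicate 1 was low for Psmf1 (32.7 against 36.5 to 37.1 CPM, gap 0.856). Replicate 1 was high for 4 genes of the immediate-early and inflammatory lists, Egr1 (235 against 39.9 to 71.4 CPM, gap 0.838), Egr2 (20.4 against 4.50 to 6.83 CPM, gap 0.853), Nr4a1 (2.37 against 0.934 to 1.12 CPM, gap 0.867) and Ccl7 (6.69 against 0.726 to 1.66 CPM, gap 0.844).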

How the results depend on the processing

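Of the 8 members 0 passed the spread test under each of the 9 alternatives, including DESeq2. The 5 members at or above the median of detected genes became 6 on CPM and 7 with no filter on low values, and were 5 with longest-transcript lengths, a 10-count filter or any replicate left out. The count of all genes past the test, 143, became 532 with a common dispersion and 69 as DESeq2 dispersion outliers, and 47 to 118 on leaving out 1 replicate (47 without replicate 1, 52 without replicate 3). The broad minus neuron-type difference, 1.04, was 1.33 with longest-transcript lengths, 1.27 on CPM, 0.64 at pseudocount 10 and 0.10 for class means, and 0.99 to 1.08 on leaving out 1 replicate. With longest-transcript lengths the order of Gak over Park7 turned from 0.21 to -0.67, and 7 of 8 member levels moved by more than their SD, most for Park7 (258 TPM); leaving out 1 replicate moved none of the levels or neighbour differences by more than its SD. No paired analysis was possible because there is 1 group. Counts of 180 to 283 limit Lrrk2.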
